A study of Mus musculus with 30 samples.

Results

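The livers of PPARα-null (Null) mice given 3 mg/kg PFOS were compared with those of wild-type (WT) mice given the same dose, across all measured genes. The 5 arrays labeled Null 3 mg/kg and the 5 labeled WT 3 mg/kg were chosen by their labels alone, 10 of the 30 arrays of the series, and no control array entered the comparison. Each array held RNA from the left liver lobe of 1 male mouse, 6 to 9 months old. PFOS (perfluorooctane sulfonate, as the potassium salt) was given by gavage in 0.5% Tween 20 on 7 consecutive days. Null mice were 129S4/SvJae-Pparatm1Gonz/J, which carry a targeted Ppara allele in every tissue, and WT mice were 129S1/SvlmJ. Genotype and substrain therefore cannot be told apart in any value below, nor can a difference in the response to PFOS be told apart from one that the genotypes have without it. The arrays labeled Null 10 mg/kg and WT 10 mg/kg, 5 mice each, were used as a second and separate set in which the same genotypes were compared at a higher dose.

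PPARα is a nuclear receptor that binds fatty acids and lipid-like drugs, pairs with RXR, and switches on liver genes for the uptake, activation, and oxidation of fatty acids in peroxisomes and mitochondria. It also drives the Cyp4a fatty acid hydroxylases and proteins that coat lipid droplets. Perfluoroalkyl acids such as PFOS activate it, along with other liver receptors such as CAR. SREBP2, a separate regulator, switches on the enzymes of cholesterol synthesis when sterols are scarce.

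Values are the log2 expression values that the authors obtained by Robust Multichip Average (RMA), and a difference is Null minus WT on that scale, so that a difference of 1 is a 2-fold change. A probe set was kept if 5 or more of the 10 arrays read above 5.65, the median of all their values. This gave 22640 probe sets for 11588 named genes, and each gene was read by its probe set with the smallest p. Genes with an adjusted p under 0.05 are termed called (limma, Benjamini-Hochberg over all kept probe sets). Array medians lay between 5.60 and 5.69. Arrays correlated at 0.992 to 0.996 within Null, 0.992 to 0.997 within WT, and 0.988 to 0.995 between genotypes. Signal of 3′ over 5′ control probe sets, a sign of RNA quality, was 0.10 to 0.16 in Null and 0.16 to 0.22 in WT for Gapdh, and 0.46 to 0.50 in Null and 0.33 to 0.44 in WT for Actb, as log2 differences. These groups nearly or fully separated, and the part of RNA quality in the results was not tested. The p-values measure the spread between individual mice, and precision is limited by having 5 arrays in each group.

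Ppara itself was lower in every Null array. It read 9.08, 9.19, 9.14, 8.79, and 9.29 in Null mice, against 10.07, 10.38, 10.48, 10.54, and 10.31 in WT mice, with a difference of -1.26 (SE 0.11, adjusted p = 1.46e-05). The groups did not overlap on this probe set. All 3 probe sets of the gene were called, and on 1 of the others Null replicates 2 and 5 (10.13 and 10.08) lay above WT replicate 1 (10.06). The signal left in Null mice was well above the filter, so the probe sets give only a modest check of the genotype labels. Of the 15 genes annotated on each side of Ppara on chromosome 15, 21 were measured and 5 were called, against 14.6% of all genes and 15.5% of those on chromosome 15. The immediate neighbour Cdpf1 was 2.01-fold lower (adjusted p = 0.00119). Of the others, 5031439G07Rik differed by -0.64, Gramd4 by -0.43, and Brd1 by -0.41, while Fbln1, an extracellular matrix protein, differed by 0.42. These neighbours were looked at for their position, and what the flanking substrain sequence adds was not tested.

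Across all genes, 1691 of 11588 were called (14.6%), 1074 higher (9.27%) and 617 lower (5.32%) in Null than in WT. In 1130 of the called genes the 5 Null arrays and the 5 WT arrays did not overlap, 709 higher and 421 lower. Over all genes tested, called or not, groups that did not overlap made up 12.3% (7.3% higher and 5.03% lower). Most differences were small, with a median size of 0.40 among called genes. A difference of at least 1.5-fold was reached by 368 called genes (235 higher and 133 lower), at least 2-fold by 117 (52 higher and 65 lower), and at least 4-fold by 24 (10 higher and 14 lower). The median difference of all genes tested was 0.02. Other scalings of the arrays moved the split between higher and lower calls: 63.5% of calls were higher as deposited, 74.5% with each array shifted to the same median, and 50.2% after repeated quantile normalization. Called genes lay on every autosome and the X chromosome, with 11.4% to 18.3% of the genes of each called. Leaving out 1 mouse gave between 827 and 2079 calls, with 827 without Null replicate 2, 1048 without Null replicate 5, 835 without WT replicate 1, 958 without WT replicate 3, and 1071 without WT replicate 5.

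**Figure D1:**
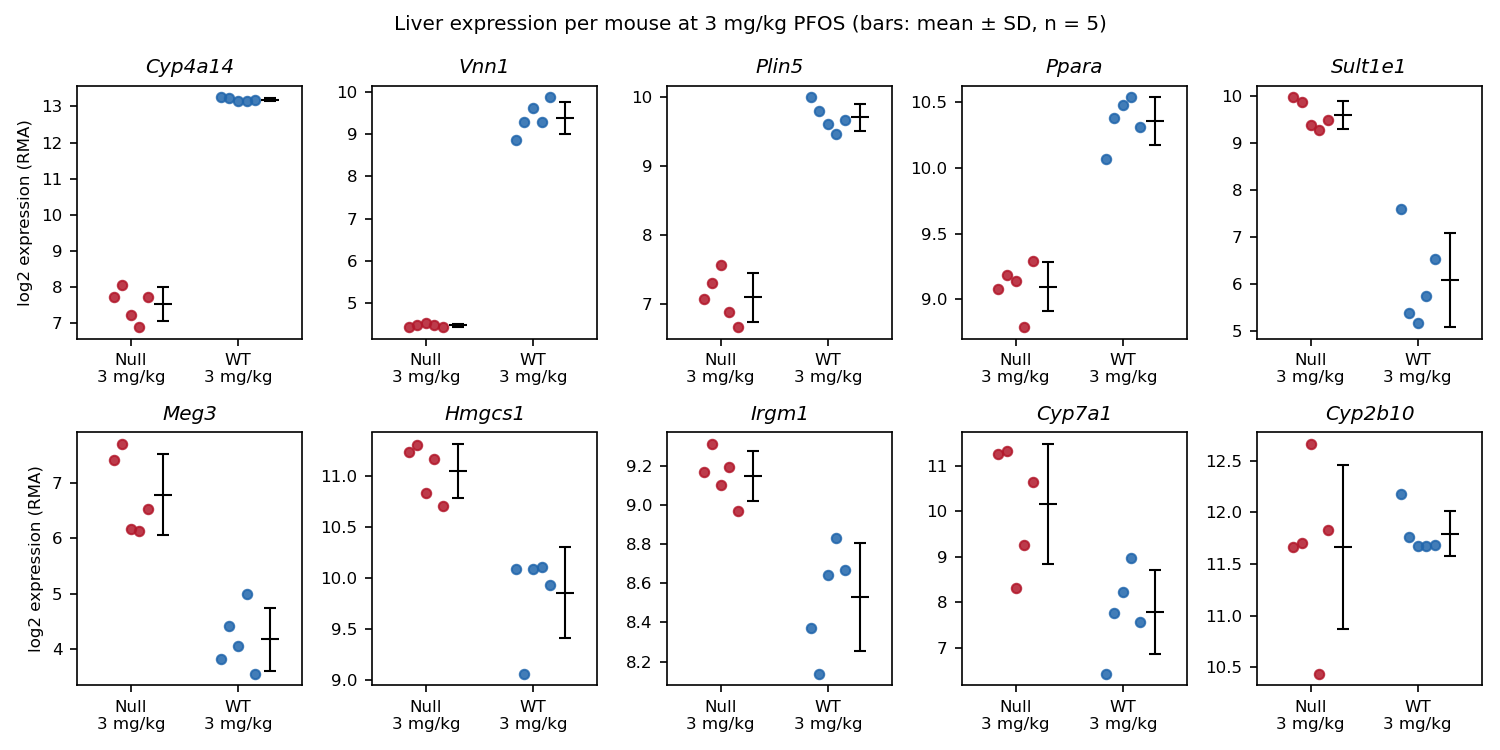
Log2 RMA value of each array for leading genes, Null 3 mg/kg to the left of WT 3 mg/kg, with a bar beside each group for its mean ± SD (n = 5). Cyp4a14 lies between 6.90 and 8.06 in Null and between 13.14 and 13.25 in WT, and Sult1e1 lies between 9.27 and 9.97 in Null and between 5.16 and 7.60 in WT.

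The largest differences were lower values in Null livers, and they included genes of fatty acid oxidation and lipid storage. Cyp4a14, a microsomal ω-hydroxylase of fatty acids, read 7.74, 8.06, 7.25, 6.90, and 7.74 in Null mice, against 13.25, 13.23, 13.16, 13.14, and 13.17 in WT mice, 50.2-fold lower (difference -5.65, SE 0.17, adjusted p = 6.84e-10). Vnn1, a pantetheinase that recycles the vitamin part of coenzyme A, read 4.43, 4.47, 4.52, 4.48, and 4.44 in Null mice, against 8.85, 9.28, 9.63, 9.28, and 9.87 in WT mice (-4.91, SE 0.15, adjusted p = 6.84e-10). Null values of Vnn1 lay below the filter's limit in every array, so that the size of its difference is set partly by array background. Cyp4a31, a relative of Cyp4a14, was 13.3-fold lower, with 6.82 to 7.29 in Null and 10.57 to 10.99 in WT. Cox6b2, a cytochrome c oxidase subunit best known from testis, read 5.01, 4.67, 4.66, 5.03, and 4.36 in Null mice, against 9.46, 8.71, 9.54, 9.28, and 9.19 in WT mice (-4.49, SE 0.16, adjusted p = 2.22e-09). None of these genes overlapped between the groups. Rab30, a small GTPase of the Golgi, was 8.16-fold lower (-3.03, adjusted p = 2.57e-07).

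Lipid droplet genes were among the same leading set. Plin5, which ties lipid droplets to mitochondria, read 7.07, 7.31, 7.57, 6.88, and 6.67 in Null mice, against 10.00, 9.80, 9.62, 9.47, and 9.67 in WT mice (-2.61, SE 0.15, adjusted p = 4.46e-07). Fitm1, which helps triglyceride form droplets, read 7.28, 6.99, 7.03, 7.10, and 7.27 in Null mice, against 9.80, 8.85, 10.14, 9.87, and 9.57 in WT mice (-2.51, SE 0.19, adjusted p = 4.02e-06). Both were low in all 5 Null mice with no overlap. Retsat, retinol saturase, differed by -2.65 (adjusted p = 2.15e-05), with 8.18 to 9.78 in Null and 11.64 to 12.03 in WT. Decr2, a peroxisomal reductase for polyunsaturated fatty acids, read 8.78, 8.85, 8.90, 8.74, and 8.88 in Null mice, against 10.96, 10.98, 11.19, 11.21, and 11.21 in WT mice (-2.28, SE 0.07, adjusted p = 1.09e-09). The remaining lower genes of the leading set were Myom2, a myomesin of the muscle sarcomere (-2.51), Chrna2, a nicotinic acetylcholine receptor subunit (-2.49), Qpct, glutaminyl cyclase (-2.25), Tmtc2 (-2.24), and Cda, cytidine deaminase (-2.13). Null values of Cox6b2, Chrna2, and Qpct also lay below the filter's limit in every array.

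Of the 52 measured genes listed as PPARα targets, 36 were lower in Null, 1 was higher, and 15 were not called, against backgrounds of 5.32% lower and 9.27% higher. Their median difference was -0.61, against 0.02 for all genes. In 35 of the 52, whether called or not, all Null arrays lay below all WT arrays, against 5.03% of all genes. Averaged over the list, the level was 9.65 to 9.98 in Null arrays and 10.78 to 10.83 in WT arrays. The 1 higher member was Nudt7, a peroxisomal hydrolase of coenzyme A (0.63, adjusted p = 0.0272), for which 1 of 4 probe sets was called. Its call was lost without any of Null replicates 1, 2, and 5 and WT replicates 1 and 5, with an adjusted p of 0.0535 to 0.0752, and also on the brightest probe set (0.117) and with 20 or 30 arrays in the fit (0.0551 and 0.0552). The lower count lay between 31 and 34 when 1 mouse was left out.

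**Figure D2:**
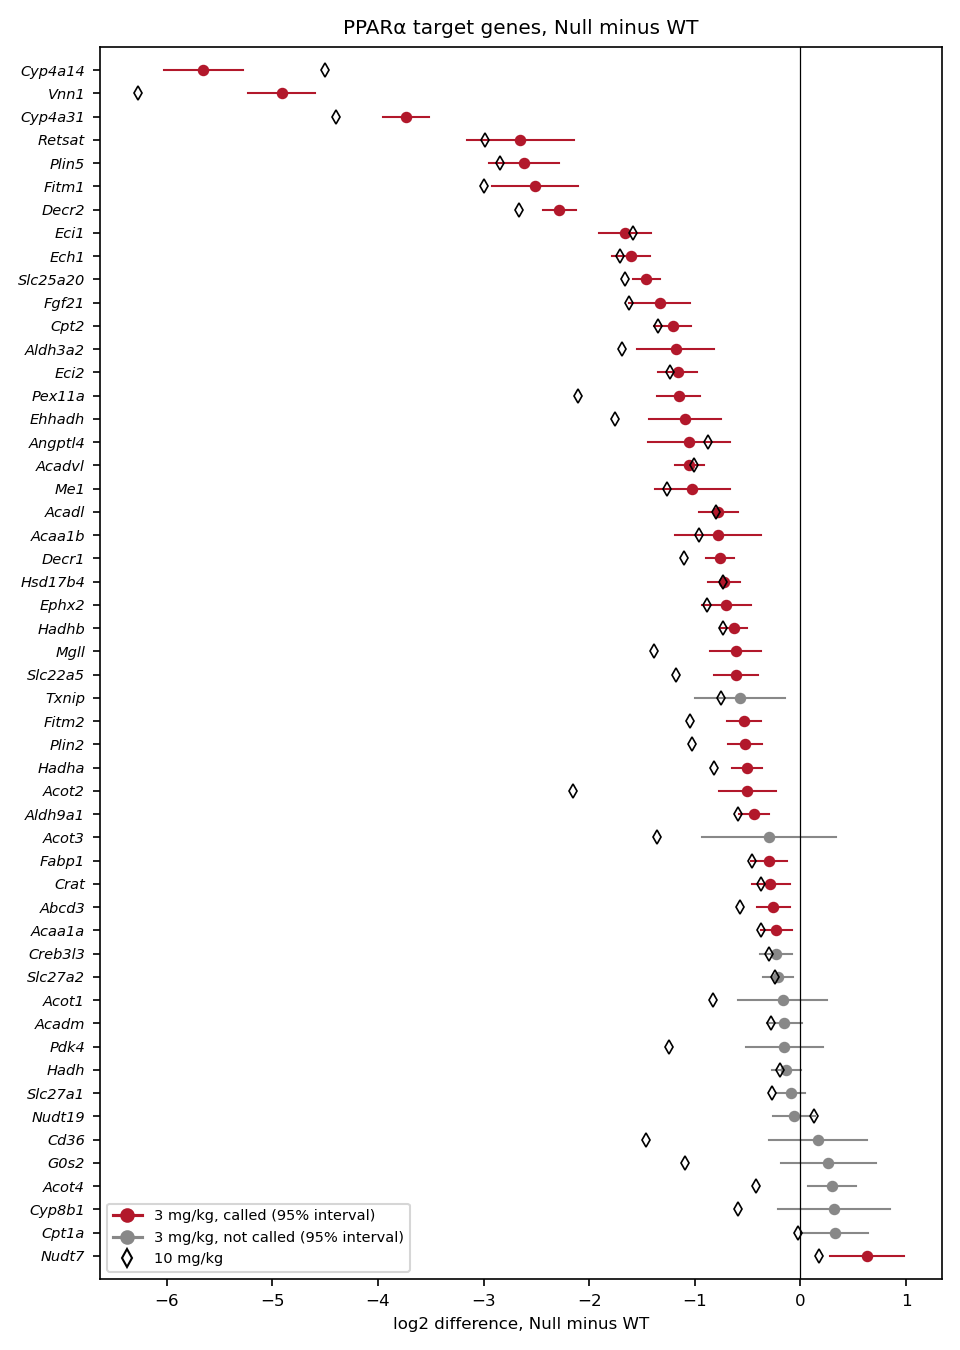
Difference of each measured PPARα target gene at 3 mg/kg, Null minus WT in log2 RMA units, with lines for the 95% interval, red for called and grey for not called, and an open diamond for the difference at 10 mg/kg. At 3 mg/kg, Cyp4a14 at -5.65 and Vnn1 at -4.91 lie farthest below 0, and Nudt7 at 0.63 is the only called member above 0.

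Peroxisomal β-oxidation genes were mostly lower or not called. Of 20 measured genes, 10 were lower, against 5.32% of all genes, with a median of -0.24. Another 2 were higher, near the 9.27% of all genes. Ech1, an isomerase for unsaturated chains, read 11.09, 11.12, 11.29, 10.84, and 11.16 in Null mice, against 12.69, 12.62, 12.71, 12.67, and 12.82 in WT mice (-1.60, SE 0.08, adjusted p = 1.39e-07). Eci2, another isomerase, differed by -1.16, and Hsd17b4, the D-bifunctional protein of the same pathway, by -0.72. The 2 higher genes were Cat, catalase, at 0.35 and Scp2, the sterol carrier protein thiolase, at 0.40. Scp2 was called on 1 of 4 probe sets, and its brightest differed by 0.001 (adjusted p = 0.996). Acox2 and Acox3, oxidases for bile acid precursors and branched chains, differed by 0.02 and 0.21 and were not called. Among 17 peroxins and peroxisomal membrane proteins, 3 were lower and 2 were higher, against the same shares of all genes. Pex11a, which promotes peroxisome division, read 9.86, 9.87, 9.97, 9.50, and 9.55 in Null mice, against 10.83, 10.97, 10.92, 10.87, and 10.93 in WT mice (-1.15, SE 0.09, adjusted p = 9.59e-06). Pxmp4, a peroxisomal membrane protein, differed by -1.47, and Pex16, needed for peroxisome membranes, by -0.42. The lower count of the β-oxidation list was 6 without WT replicate 3. Its higher count was 0 without WT replicate 1 and 1 without Null replicate 1, 2, or 3 or WT replicate 5.

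Most genes of mitochondrial fatty acid oxidation were lower. Of 21 measured genes, 13 were lower and 1 was higher, with a median of -0.51, and 14 had all Null arrays below all WT arrays. Among all genes, 5.32% were lower, 9.27% were higher, and 5.03% had all Null arrays below all WT arrays. Slc25a20, the carnitine-acylcarnitine carrier, read 9.21, 9.26, 9.33, 9.15, and 9.27 in Null mice, against 10.66, 10.68, 10.76, 10.68, and 10.74 in WT mice (-1.46, SE 0.06, adjusted p = 9.38e-09). Cpt2, which acts after that carrier, read 10.24, 10.38, 10.58, 10.17, and 10.40 in Null mice, against 11.69, 11.54, 11.48, 11.59, and 11.54 in WT mice (-1.21, SE 0.08, adjusted p = 1.73e-06). Acadvl, the very long chain dehydrogenase, read 11.69, 11.65, 11.76, 11.78, and 11.71 in Null mice, against 12.76, 12.93, 12.76, 12.69, and 12.73 in WT mice (-1.05, SE 0.07, adjusted p = 7.81e-07). Spread among the 5 mice of each genotype was small beside these differences. The exception was Bdh1, a ketone body dehydrogenase, at 0.58. Cpt1a, the entry step of the pathway, differed by 0.33 (adjusted p = 0.151) and was not called, and the medium chain dehydrogenase Acadm differed by -0.15 and was not called either.

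Other PPARα-linked groups were mixed, where 5.32% of all genes were lower and 9.27% were higher. Of 15 lipid droplet proteins and lipases, 6 were lower and 0 were higher, with Lpl, lipoprotein lipase, at -0.70, Plin2, the common droplet coat, at -0.52, and Fitm2 at -0.53. Of 12 acyl-CoA thioesterases, 2 were lower (1 without Null replicate 5 or WT replicate 5) and 1 was higher (3 without WT replicate 2). Acot8, the peroxisomal thioesterase, was at -1.07 and Acot11, a thioesterase first found in brown fat, was at 0.62 (adjusted p = 0.000641), or at 1.09 and 1.33 on another probe set without Null replicates 2 and 5. Acot2, a mitochondrial thioesterase, read 6.15, 6.23, 6.54, 5.97, and 5.91 in Null mice, against 6.50, 6.48, 6.62, 6.79, and 6.92 in WT mice, a difference of -0.50 in groups that overlapped (SE 0.12, adjusted p = 0.0233). It was not called without Null replicate 5 (adjusted p = 0.0542) or without WT replicate 5 (0.0548), nor with 30 arrays in the fit (0.215). Fgf21, a fasting hormone secreted by the liver, read 5.50, 5.58, 5.35, 5.47, and 5.01 in Null mice, against 6.79, 6.63, 6.69, 7.10, and 6.36 in WT mice (-1.33, SE 0.13, adjusted p = 6.77e-05). Angptl4, a secreted inhibitor of lipoprotein lipase, differed by -1.06. In lipogenesis, 3 of 29 were higher and 3 were lower, 20.7% in all against 14.6% of all genes, and the lower count was 5 without Null replicate 3. Scd1, the stearoyl-CoA desaturase, differed by -1.95, and by -1.14 on its brighter probe set. Malic enzyme Me1 differed by -1.03 and Thrsp, a thyroid-responsive lipogenic gene, by 1.15. Fasn, fatty acid synthase, differed by -0.12 and was not called.

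Promoters of these genes were read for the PPARα repeat near the start. RefSeq promoters of GRCm38.p6, from 250 bases before to 50 bases after the start, were available for 44 of the 52 measured targets. A gene with several promoters was counted as a match if any of them matched. The repeat, 2 copies of AGGTCA with 1 base between them, searched on both strands, occurred in 0 of the 44 and in 0.0481% of the 27025 genes with a promoter. The full repeat was found in only 4 of the 9363 tested genes with a promoter, so 0 of 44 says nothing particular about the targets. Sites outside these windows were not read. A looser form with AGGNCA in place of AGGTCA, of which the first is a special case, occurred in 1 of the 44 and in 0.451% of all genes with a promoter. That gene was Fabp1, the liver fatty acid binding protein, chosen after its values were seen. Its values were 13.72, 13.78, 13.93, 13.56, and 13.77 in Null mice, against 14.05, 13.91, 14.13, 14.13, and 14.02 in WT mice (-0.30, SE 0.08, adjusted p = 0.0294), so that the groups barely overlapped. The 250 bases before its start are chr6:71199629-71199878 on the plus strand, with the looser repeat, read on the other strand and 67 bases before the start, in capitals. A match describes the letters and no binding was measured.
Fabp1: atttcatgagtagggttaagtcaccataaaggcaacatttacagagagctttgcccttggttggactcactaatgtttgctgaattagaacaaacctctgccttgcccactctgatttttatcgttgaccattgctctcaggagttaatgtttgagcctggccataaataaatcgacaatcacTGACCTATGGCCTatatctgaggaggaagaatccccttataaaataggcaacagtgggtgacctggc

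Among genes higher in Null, the leading set mixed hormone metabolism, immune, and imprinted transcripts. Sult1e1, the estrogen sulfotransferase, read 9.97, 9.87, 9.38, 9.27, and 9.48 in Null mice, against 7.60, 5.36, 5.16, 5.73, and 6.52 in WT mice, 11.5-fold higher (difference 3.52, SE 0.37, adjusted p = 0.000102). Serpinb1a, an inhibitor of neutrophil proteases, read 9.81, 10.02, 9.68, 8.06, and 9.48 in Null mice, against 6.35, 5.01, 6.66, 6.91, and 6.16 in WT mice, 9.14-fold higher (3.19, SE 0.38, adjusted p = 0.000292). Neither gene overlapped, although Null replicate 4 lay well below the other Null mice for Serpinb1a. Meg3, a maternally expressed long noncoding RNA, read 7.41, 7.70, 6.16, 6.12, and 6.53 in Null mice, against 3.82, 4.43, 4.06, 5.00, and 3.56 in WT mice (2.61, SE 0.33, adjusted p = 0.000443), and 7 of its 9 probe sets were called. Rian and Mirg, noncoding RNAs of the same imprinted cluster, differed by 1.59 and 0.67. Peg3, a paternally expressed zinc finger gene from another imprinted locus, differed by -0.82 (adjusted p = 0.000921). Of the 11 measured genes in the imprinted list, these were the 4 called, against 14.6% of all genes.

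The other leading higher genes were Cxcl14, a chemokine (2.61), Lrtm1 (2.46), Blnk, a B cell receptor adaptor (2.24), Clta, a clathrin light chain (2.24), Tafa2, a secreted chemokine-like protein (2.21), Cyp2d12 (2.21), Smpd3, a neutral sphingomyelinase (1.48), Slc13a3, a dicarboxylate transporter (1.40), Ttc39a (1.38), and Per2, a circadian repressor (1.37). Clta was called on 1 of 3 probe sets, and the brightest of the others differed by -0.004 (adjusted p = 0.978), so the genotypes differed in what 1 probe set detects and not in every reading of the gene. Per2 was called on 1 of 3 probe sets. Leaving out 1 mouse moved the difference of some of these genes by over 1.5 times, because another probe set then had the smallest p. It was 1.40 for Lrtm1 without Null replicate 5, where the original probe set gave 2.49, and 0.67 for Per2 without WT replicate 2, where the original gave 1.61. Among the lower genes it was -1.41, -1.57, and -1.58 for Myom2 without Null replicates 1, 3, and 5, and -1.32 and -1.45 for Tmtc2 without WT replicates 3 and 4, and their original probe sets gave -2.58 to -2.40 and -2.25 to -2.19 there. For Mirg it was 1.48 without Null replicate 4 (0.71 on the original probe set). WT values of Meg3, Cxcl14, Cyp2d12, and Tafa2 lay below the filter's limit in every array.

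Genes of cholesterol synthesis were higher in Null or not called. Of 22 measured genes listed for the pathway and its regulator SREBP2, 11 were higher and 0 were lower, with a median of 0.42. Among all genes, 9.27% were higher and 5.32% were lower. In 12 of the list all Null arrays lay above all WT arrays, against a background of 7.3%. Hmgcs1, which makes HMG-CoA at the start of the pathway, read 11.24, 11.31, 10.83, 11.16, and 10.71 in Null mice, against 10.09, 9.06, 10.09, 10.10, and 9.93 in WT mice (1.20, SE 0.19, adjusted p = 0.00236), and all 4 of its probe sets were called. Msmo1, a sterol methyl oxidase late in the pathway, read 13.11, 13.19, 12.68, 13.02, and 12.96 in Null mice, against 12.22, 11.63, 12.19, 12.36, and 12.13 in WT mice (0.88, SE 0.13, adjusted p = 0.00152). The groups did not overlap for either gene, and WT replicate 2 was the lowest array for both. Lss, which closes the sterol rings, read 7.43, 7.80, 7.36, 7.09, and 7.36 in Null mice, against 6.72, 6.42, 6.78, 6.85, and 6.70 in WT mice (0.71, SE 0.12, adjusted p = 0.00299), and was called on 1 of 2 probe sets. At other steps, Idi1 differed by 0.93, Sqle by 0.84, Cyp51 by 0.83, Fdft1 by 0.52, Mvk by 0.47, Nsdhl by 0.37, and Fdps by 0.28. Stard4, a cholesterol carrier and SREBP2 target, differed by 0.50 (adjusted p = 0.00176). Srebf2 itself differed by 0.22 (adjusted p = 0.179) and was not called. Averaged over the list, the level was 10.27 to 10.47 in Null arrays and 9.56 to 10.05 in WT arrays. The count was 9 to 11 when 1 mouse was left out and 6 at a difference of at least 1.5-fold.

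Promoters of the list were read for the CCAAT box, which SREBP2 target promoters are known to pair with a sterol element. CCAAT, searched on both strands of the same 300 base windows, occurred in 18 of the 18 measured members with a promoter, 7 of them called. It occurred in 41.1% of all genes with a promoter (42.3% of those tested). A sterol element core, TCACNCCAC, occurred in 1 of the 18, Hmgcs1, and in 1.44% of all genes with a promoter. The 250 bases before the start of 3 enzymes are printed because they span the pathway. They are Hmgcs1 at chr13:119690101-119690350 on the plus strand, Msmo1 at chr8:64733579-64733828 on the minus strand, and Lss at chr10:76531355-76531604 on the plus strand, with CCAAT boxes of either strand in capitals. Boxes lie 237, 176, and 45 bases before the start in Hmgcs1, 160, 96, and 55 in Msmo1, and 62 in Lss.
Hmgcs1: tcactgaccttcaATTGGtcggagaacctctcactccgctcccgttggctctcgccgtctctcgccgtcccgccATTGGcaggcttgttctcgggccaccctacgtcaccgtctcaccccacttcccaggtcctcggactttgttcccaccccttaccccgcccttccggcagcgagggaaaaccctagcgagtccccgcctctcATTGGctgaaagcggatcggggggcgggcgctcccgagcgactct
Msmo1: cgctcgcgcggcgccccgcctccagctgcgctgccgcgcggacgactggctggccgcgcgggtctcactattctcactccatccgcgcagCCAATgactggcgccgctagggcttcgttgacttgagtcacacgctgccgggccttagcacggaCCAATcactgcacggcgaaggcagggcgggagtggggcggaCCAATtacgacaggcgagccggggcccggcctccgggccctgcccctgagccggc
Lss: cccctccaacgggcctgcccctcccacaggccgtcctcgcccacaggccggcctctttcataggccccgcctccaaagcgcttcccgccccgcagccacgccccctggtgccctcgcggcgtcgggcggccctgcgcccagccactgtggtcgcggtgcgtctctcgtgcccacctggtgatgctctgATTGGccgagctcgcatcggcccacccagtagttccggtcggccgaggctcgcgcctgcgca

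Bile acid synthesis, which consumes cholesterol, had 4 higher and 1 lower of 16 measured genes, against 9.27% and 5.32% of all genes. Cyp7a1, the rate-limiting enzyme of the classic pathway, read 11.26, 11.32, 8.32, 9.26, and 10.65 in Null mice, against 6.43, 7.76, 8.22, 8.97, and 7.56 in WT mice (2.38, SE 0.57, adjusted p = 0.0214). The groups overlapped, with Null replicate 3 below WT replicate 4, and both probe sets were called. The call was lost without Null replicate 2 (adjusted p = 0.0583), without Null replicate 5 (0.0524), or without WT replicate 1 (0.0572). It was also lost under limma with trend and robust spread (0.0665) and with the replicate number as a block (0.0526). Akr1d1, a reductase of bile acid intermediates, differed by 1.02, or 0.42 on its brighter probe set, and Cyp7b1 of the alternative pathway by 0.48. Cyp8b1, which sets the share of cholic acid, differed by 0.32 and was not called. Of 19 transporters of bile acids and anions, 6 were higher and 2 were lower. Abcg8, which exports cholesterol into bile, read 9.54, 9.48, 9.66, 9.51, and 9.82 in Null mice, against 10.40, 10.66, 10.17, 10.25, and 10.05 in WT mice (-0.70, SE 0.11, adjusted p = 0.00211), and its partner Abcg5 differed by -0.45. Uptake carriers Slco1a4 and Slco1b2 differed by 0.72 and 0.69. Brighter probe sets of Slco1b2 differed by 0.345 and 0.453 and were called. The higher count of the bile acid list was 1 without WT replicate 1 and 2 without Null replicate 2 or 5, and that of the transporters was 3 without Null replicate 2.

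Lists of foreign compound metabolism varied. Of 29 CAR and PXR targets, 8 were higher (27.6%, against 9.27% of all genes) and 0 were lower, with a median of 0.10. Cyp2b10, the usual mark of CAR activation, read 11.67, 11.70, 12.66, 10.44, and 11.83 in Null mice, against 12.17, 11.76, 11.68, 11.68, and 11.68 in WT mice, a difference of -0.14 with a 95% interval of -0.77 to 0.50 (adjusted p = 0.796). Its values overlapped fully. Alas1, the first enzyme of heme synthesis, read 8.36, 8.26, 7.51, 7.16, and 7.66 in Null mice, against 5.95, 6.98, 6.59, 6.79, and 7.24 in WT mice (1.08, SE 0.25, adjusted p = 0.0192), with a small overlap. It was not called without Null replicate 2 (adjusted p = 0.0544). Gstm2, a glutathione transferase, differed by 0.85 and Papss2, which makes the sulfate donor, by 0.56. Of 5 measured AhR targets 0 were called. Of 25 NRF2 genes 4 were higher and 2 were lower, against 9.27% and 5.32% of all genes, with Gclm at 0.56, Hmox1 at 0.40, and Gstm4 at -0.85. The brightest probe set of Gclm differed by 0.15 (adjusted p = 0.12) and was not called. The higher count was 1 without Null replicate 2, WT replicate 1, or WT replicate 5 and 2 without Null replicate 3, and the lower count was 1 without Null replicate 2, 3, or 4 or WT replicate 1, 3, or 4. The count for CAR and PXR targets ranged from 4 (without Null replicate 2) to 11 (without Null replicate 4) and was 5 without Null replicate 1, Null replicate 5, or WT replicate 3.

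**Figure D3:**
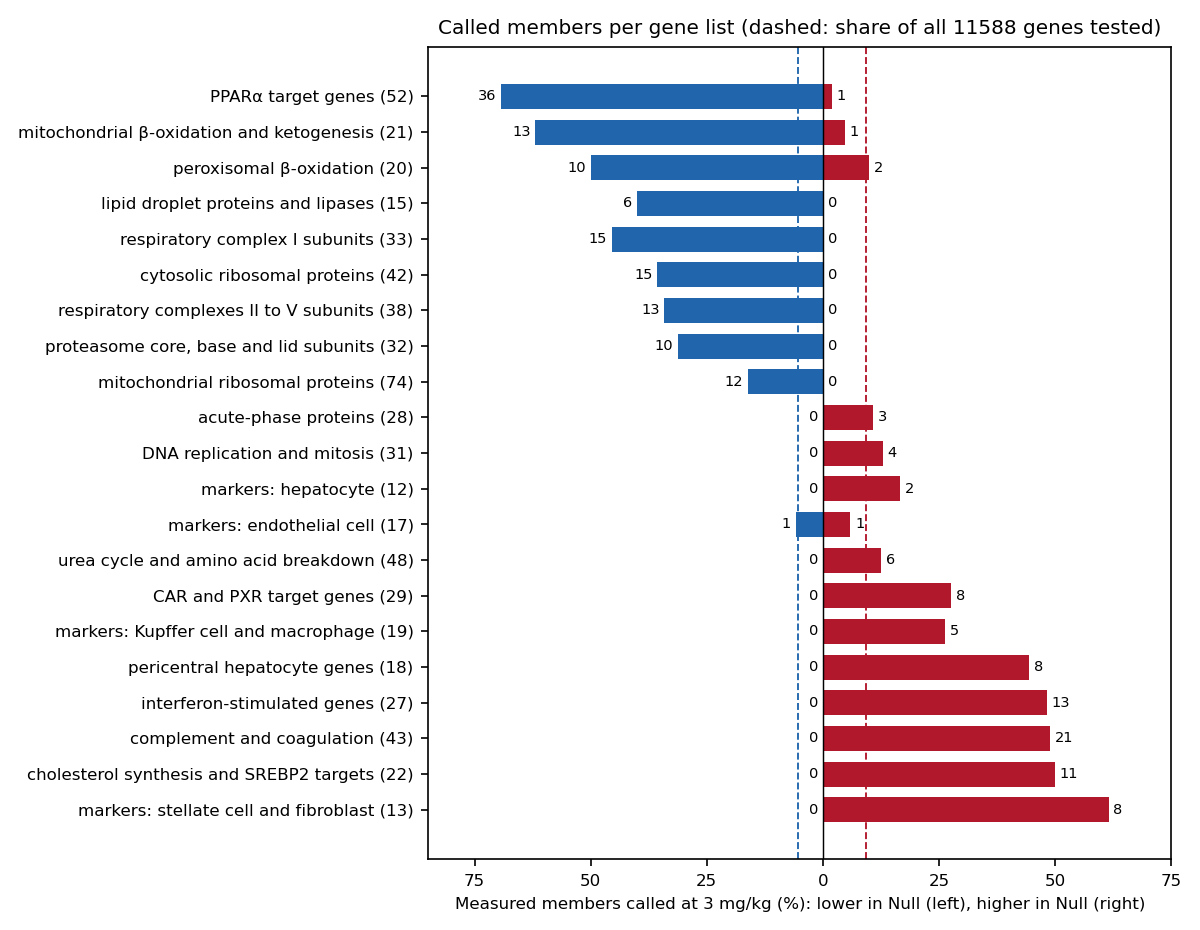
Share of the measured members of each gene list (number in brackets) called higher (red, right) or lower (blue, left) in Null than in WT at 3 mg/kg, with the count at the bar's end and dashed lines at the shares of all 11588 genes tested (9.27% higher and 5.32% lower). PPARα targets have 36 of 52 lower and cholesterol synthesis 11 of 22 higher.

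Complement and coagulation genes, secreted mainly by hepatocytes, were higher or not called. Of 43 measured, 21 were higher and 0 were lower, with a median of 0.30, and in 20 all Null arrays lay above all WT arrays. Among all genes, 9.27% were higher, 5.32% were lower, and 7.3% had all Null arrays above all WT arrays. Pros1, protein S, read 9.71, 9.88, 9.51, 9.77, and 9.78 in Null mice, against 8.34, 8.50, 8.48, 8.77, and 9.02 in WT mice (1.11, SE 0.12, adjusted p = 0.000122). C2, an early complement protease, read 11.04, 11.11, 11.21, 11.06, and 11.23 in Null mice, against 10.16, 10.47, 10.29, 10.51, and 10.64 in WT mice (0.71, SE 0.09, adjusted p = 0.000455). C4bp, which restrains complement, read 12.83, 12.90, 12.73, 13.16, and 12.86 in Null mice, against 12.11, 12.11, 12.18, 12.38, and 12.42 in WT mice (0.65, SE 0.09, adjusted p = 0.00122). None of these overlapped. The fibrinogen genes Fga, Fgb, and Fgg differed by 0.11, 0.09, and 0.05 and were not called. The count was 17 to 22 when 1 mouse was left out and 6 at a difference of at least 1.5-fold.

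Interferon-stimulated genes were higher in Null or not called, and their count depended on single mice. Of 27 measured, 13 were higher and 0 were lower, against 9.27% and 5.32% of all genes, with a median of 0.49. Irgm1, an interferon-inducible GTPase of cell-autonomous defense, read 9.17, 9.31, 9.10, 9.19, and 8.97 in Null mice, against 8.37, 8.14, 8.64, 8.83, and 8.67 in WT mice (0.62, SE 0.12, adjusted p = 0.00701). Igtp, a related GTPase, read 9.97, 10.15, 9.59, 10.21, and 9.87 in Null mice, against 8.61, 8.30, 9.24, 9.44, and 9.49 in WT mice (0.94, SE 0.21, adjusted p = 0.016). WT replicates 1 and 2 were the lowest arrays for both genes, and neither gene overlapped. Ifih1, a sensor of viral RNA, differed by 0.64 (adjusted p = 0.00741). The level averaged over the list was 7.66 to 8.06 in Null arrays and 6.93 to 7.66 in WT arrays, so that the groups nearly touched. The count was 5 without Null replicate 1, Null replicate 2, or WT replicate 1, 8 without WT replicate 3, and 15 without WT replicate 4. With the replicate number as a block it was 6.

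Their promoters were read for the core of the interferon response element. GAAA followed by any 2 bases and GAAAC, searched on both strands, occurred in 10 of the 19 measured members with a promoter, 6 of them called. It occurred in 0.944% of all genes with a promoter (0.876% of those tested). The 250 bases before the start are printed for 3 called members with matches. They are Irgm1 at chr11:48871421-48871670 on the minus strand, with 2 overlapping matches 30 and 24 bases before the start, Stat2 at chr10:128270248-128270497 on the plus strand, with a match 223 bases before, and Ifit3 at chr19:34583279-34583528 on the plus strand, with matches 157 and 123 bases before. Capitals mark the element on either strand. Stat2, which carries the interferon signal to the nucleus, differed by 0.53 (adjusted p = 0.0162), and Ifit3, an antiviral effector, by 0.82 (adjusted p = 0.025), and both were chosen after their values were seen.
Irgm1: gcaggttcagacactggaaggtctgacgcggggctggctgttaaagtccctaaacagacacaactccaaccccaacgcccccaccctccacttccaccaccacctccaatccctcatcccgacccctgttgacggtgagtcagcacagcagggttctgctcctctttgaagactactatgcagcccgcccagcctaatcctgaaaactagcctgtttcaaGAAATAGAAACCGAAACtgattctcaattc
Stat2: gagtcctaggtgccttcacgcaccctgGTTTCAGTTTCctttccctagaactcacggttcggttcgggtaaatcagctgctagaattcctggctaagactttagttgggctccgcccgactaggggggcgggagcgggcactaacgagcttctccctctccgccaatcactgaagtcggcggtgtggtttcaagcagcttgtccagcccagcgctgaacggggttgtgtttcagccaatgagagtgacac
Ifit3: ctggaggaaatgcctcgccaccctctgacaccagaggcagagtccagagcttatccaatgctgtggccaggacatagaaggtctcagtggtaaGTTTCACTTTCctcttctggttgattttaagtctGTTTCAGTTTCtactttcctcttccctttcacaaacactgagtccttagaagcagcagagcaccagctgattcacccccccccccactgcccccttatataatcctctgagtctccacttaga

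Few acute-phase genes were called. Of 28 measured, 3 were higher (10.7%, near the 9.27% of all genes) and 0 were lower, with a median of 0.46. Saa1, an acute-phase apolipoprotein chosen after its values were seen, read 12.97, 13.07, 12.72, 13.79, and 13.65 in Null mice, against 8.20, 7.84, 11.98, 13.02, and 13.59 in WT mice (2.31, SE 0.98, adjusted p = 0.142). It was not called: WT replicates 1 and 2 lay far below all other mice, WT replicate 3 lay below every Null mouse, and WT replicates 4 and 5 overlapped with Null. Saa2 and Lcn2, chosen likewise, differed by 2.57 (adjusted p = 0.183) and 2.40 (adjusted p = 0.166). Without WT replicate 5 the count of higher acute-phase genes was 13. Il1rn, the antagonist of the interleukin 1 receptor, was called at 0.52 (adjusted p = 0.00125).

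Cell type markers were read beside these groups, where 9.27% of all genes were higher and 5.32% were lower in Null. Called shares were 16.7% for hepatocyte, 26.3% for macrophage, 61.5% for stellate cell, and 22.2% for lymphocyte markers, against 14.6% of all genes. For endothelial markers the share was 11.8%, with 1 of 17 higher and 1 lower and a median of 0.01. Of 5 erythroid markers 1 was higher and 1 was lower. Of 5 adipocyte markers 1 was higher, and of 4 exocrine pancreas markers 1 was lower. In bulk liver, fewer cells of a type and less RNA per cell cannot be told apart. Of 12 hepatocyte markers 2 were higher (Hnf4a, on 1 of 4 probe sets and at 0.33 on another without WT replicate 2, and Tdo2) and 0 were lower, with a mean level of 13.16 to 13.23 in Null and 12.98 to 13.14 in WT, and albumin (Alb) differed by 0.01. Of 19 Kupffer cell and macrophage markers 5 were higher and 0 were lower, with a median of 0.32 and a mean level of 8.28 to 8.60 in Null and 7.72 to 8.24 in WT. Mpeg1, perforin-2 of macrophages, read 9.37, 9.45, 8.91, 9.34, and 9.03 in Null mice, against 7.96, 7.99, 8.35, 8.52, and 8.65 in WT mice (0.92, SE 0.15, adjusted p = 0.00228). C1qb differed by 0.90 on its dimmest probe set and by 0.33 (adjusted p = 0.0851, not called) on its brightest. The macrophage markers Clec4f and Adgre1 differed by 0.19 and 0.27 and were not called. The macrophage count was 1 to 7 when 1 mouse was left out, with 1 without Null replicate 2 or WT replicate 1, 2 without Null replicate 1, WT replicate 2, or WT replicate 5, and 3 without Null replicate 3, 4, or 5. Of 13 stellate cell and fibroblast markers 8 were higher and 0 were lower, with a mean level of 7.81 to 8.06 in Null and 7.50 to 7.72 in WT. Col3a1, a fibrillar collagen, read 7.67, 8.04, 7.09, 7.24, and 7.57 in Null mice, against 6.06, 6.08, 6.64, 7.11, and 6.10 in WT mice (1.12, SE 0.22, adjusted p = 0.00721), while Des and Acta2, markers of resting and activated stellate cells, differed by -0.06 and -0.04. The stellate count was 4 without Null replicate 2 and 5 without WT replicate 1. Of 9 lymphocyte markers 2 were higher (Ighm at 0.47 and Ptprc at 0.57). Probe sets of Ighm disagreed, at 0.47 and 0.60 (called) and at -0.35 and -0.37 (not called). Of 7 neutrophil and 3 bile duct markers 0 were called (mean level 5.79 to 6.30 in Null and 5.55 to 6.31 in WT for neutrophils). The part of these cells in the complement, interferon, and acute-phase values was not tested.

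**Figure D4:**
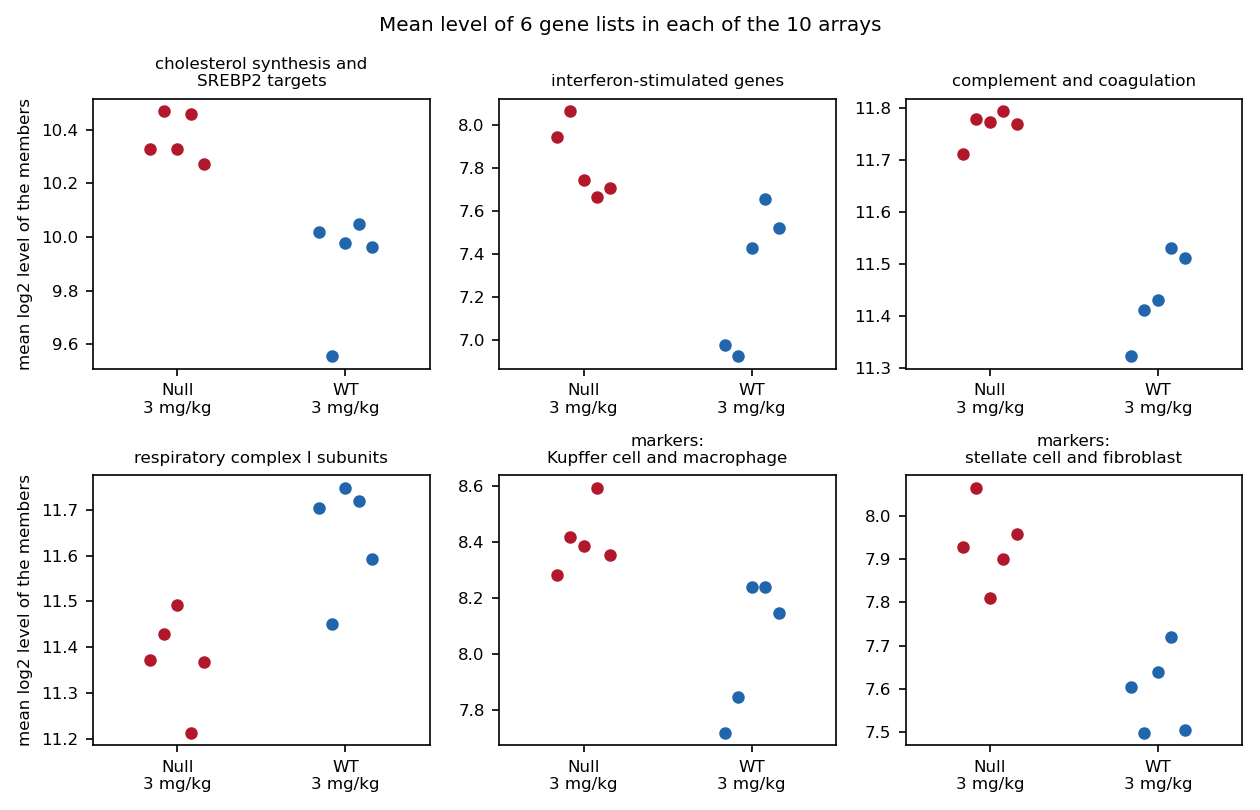
Mean log2 RMA level of the members of 6 gene lists, 1 point per array, Null 3 mg/kg to the left of WT 3 mg/kg. The groups overlap for complex I subunits and not for the other 5 lists, and complement and coagulation genes lie between 11.71 and 11.79 in Null and between 11.32 and 11.53 in WT.

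Subunits of large complexes were lower in Null or, for most of them, not called, where 5.32% of all genes were lower. For the respiratory chain, 15 of 33 complex I subunits and 13 of 38 subunits of complexes II to V were lower and 0 were higher, with medians of -0.27 and -0.21. Ndufb11, a membrane subunit of complex I, read 12.07, 12.12, 12.22, 12.16, and 12.16 in Null mice, against 12.65, 12.36, 12.65, 12.56, and 12.57 in WT mice (-0.41, SE 0.07, adjusted p = 0.0035). Cycs, cytochrome c, differed by -0.52 on 1 of 3 probe sets. Ndufa5 of complex I differed by -0.33 with a 95% interval of -0.62 to -0.05 (adjusted p = 0.122) and was not called. Of 32 proteasome subunits 10 were lower and 0 were higher (median -0.22), with Psmb3, a core subunit, at -0.58. Of 42 cytosolic ribosomal protein genes 15 were lower (median -0.20), with Fau at -0.35, and of 74 mitochondrial ribosomal protein genes 12 were lower (median -0.21), with Mrpl14 at -0.44. WT replicate 2 was the WT array nearest to Null for Ndufb11 and Psmb3. The medians of these lists kept their sign under both other scalings, but the counts did not hold. With each array shifted to the same median, 6 complex I and 5 proteasome subunits were lower, and after repeated quantile normalization 22 and 16 were. Leaving out 1 mouse gave 5 (without WT replicate 1 or 3) to 23 (without WT replicate 2) for complex I. The counts were 8 without Null replicate 1, 7 without Null replicate 2 or 5, 6 without WT replicate 4, and 9 without WT replicate 5. For complexes II to V the count was 5 without WT replicate 1 or 3, 7 without Null replicate 2, and 8 without Null replicate 5. For the proteasome it was 3 to 17 and moved by over 1.5 times without any mouse but Null replicate 4. For cytosolic ribosomal proteins it was 3 to 18, with such moves without Null replicates 1, 2, and 5 and WT replicates 1, 3, 4, and 5, and for mitochondrial ribosomal proteins 2 to 31, with such moves without any mouse but Null replicates 3 and 4.

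Pericentral hepatocyte genes, expressed around the central vein, had 8 higher and 0 lower of 18, against 9.27% and 5.32% of all genes. Slc1a2, a glutamate carrier, read 8.95, 8.92, 8.29, 8.50, and 8.54 in Null mice, against 7.45, 7.80, 7.51, 7.76, and 7.56 in WT mice (1.03, SE 0.13, adjusted p = 0.000378). No other probe set of Slc1a2 was called, and the brightest differed by 0.49 (adjusted p = 0.0708). Gulo, of vitamin C synthesis, differed by 0.61. Glul and Cyp2e1, typical central vein genes, differed by 0.20 and 0.10 and were not called. Of 16 periportal genes 3 were higher and 0 were lower, with Pck1 at 0.55 and Apoa4 at 0.61, and the count was 1 without Null replicate 2 or WT replicate 3. The pericentral count was 5 without Null replicate 2 or Null replicate 5.

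The same genotypes at 10 mg/kg gave a separate reading, from 10 arrays that share none with the comparison at 3 mg/kg, with each gene read by the same probe set. There, 866 of the 11588 genes were called (7.47%), 342 higher (2.95%) and 524 lower (4.52%) in Null. Probe sets were filtered and chosen on the 3 mg/kg arrays, by the smallest p there, which favors calls at 3 mg/kg. The counts and shares at the 2 doses are therefore not like for like. Of the genes called at 3 mg/kg, 444 were called in the same direction at 10 mg/kg (26.3% of the 3 mg/kg calls and 51.3% of the 10 mg/kg calls), 176 higher and 268 lower, and 5 were called in the opposite direction. Of the 1691, 1552 (91.8%) had the same sign at 10 mg/kg. Among PPARα targets 43 of 52 were lower at 10 mg/kg, with a median of -1.04, against 0.02 for all genes. Vnn1 differed by -6.27, Cyp4a31 by -4.39, Cyp4a14 by -4.50, and Plin5 by -2.85. Sult1e1 and Meg3 differed by 3.88 and 3.06. The cholesterol list had 0 higher and 1 lower at 10 mg/kg with a median of 0.05, and Hmgcs1 differed by 0.02 (adjusted p = 0.976). The interferon list had 0 called with a median of 0.17, and the complement list 10 higher and 1 lower with a median of 0.29. Cyp7a1 differed by 0.56 (adjusted p = 0.487). Leaving out 1 mouse moved the 866 calls to between 502 and 1672, with 1672 without Null 10 mg/kg replicate 1, 520 without its replicate 3, and 528, 518, 565, and 502 without WT 10 mg/kg replicates 1, 2, 4, and 5.

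Whether a genotype difference itself differed between the doses was tested in 1 fit of the 20 arrays, with the probe sets chosen at 3 mg/kg. It did for 26 genes (0.224%), 23 (0.198%) shifted toward higher values in Null at 3 mg/kg and 3 (0.0259%) toward lower ones, and 16 of the 26 were called at 3 mg/kg. At an unadjusted p under 0.05 there were 1014 genes. No gene of the cholesterol, interferon, or complement lists was among the 26, so a call at 3 mg/kg that is missing at 10 mg/kg is not shown to differ between the doses there. Myom2 read 6.15, 6.31, 6.74, 6.83, and 6.89 in Null mice, against 9.61, 9.79, 8.64, 8.81, and 8.60 in WT mice at 3 mg/kg, and its difference of -2.51 stood against -0.37 at 10 mg/kg (adjusted p of the difference 0.00783). Acot2 differed by -0.50 at 3 mg/kg and by -2.16 at 10 mg/kg (adjusted p of the difference 0.000877), and Pex11a by -1.15 and -2.10 (0.00271). These 2 PPARα targets were lower in Null at both doses and more so at the higher one. The direction differed between the doses for a pair of mitotic genes. Ube2c, which tags proteins for destruction in mitosis, differed by 0.96 at 3 mg/kg and by -1.15 at 10 mg/kg (0.00241), and Cdc20, its partner in the same process, by 0.56 and -1.30 (0.00154), each called at both doses. For Ube2c and Cdc20 the mean WT value at 3 mg/kg (5.39 and 5.43) lay under the filter's limit. The size of both differences at that dose is therefore set partly by array background. Without Null replicate 1, WT replicate 3, or WT replicate 4, another probe set put Cdc20 at 1.43 to 1.46. Of 31 measured genes of DNA replication and mitosis, 4 were higher and 0 were lower in Null at 3 mg/kg, where 9.27% of all genes were higher, 6 were lower with 0 higher at 10 mg/kg, where 4.52% were lower, and 3 of the 31 were among the 26. Chosen after their values were seen, the lipid genes Cd36, a fatty acid translocase, and Pltp, a phospholipid transfer protein, differed by 0.17 and -0.25 at 3 mg/kg, not called, and by -1.46 and -1.95 at 10 mg/kg (adjusted p of the difference 0.0115 and 0.00142). Ifi27l2b, a gene of the interferon-inducible ISG12 family, differed by 0.92 at 3 mg/kg and by -0.62 at 10 mg/kg (0.0014). Leaving out 1 of the 20 mice gave 16 to 36 such genes, with 17 without Null replicate 1, Null replicate 2, or WT replicate 5 and 16 without WT replicate 1.

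**Figure D5:**
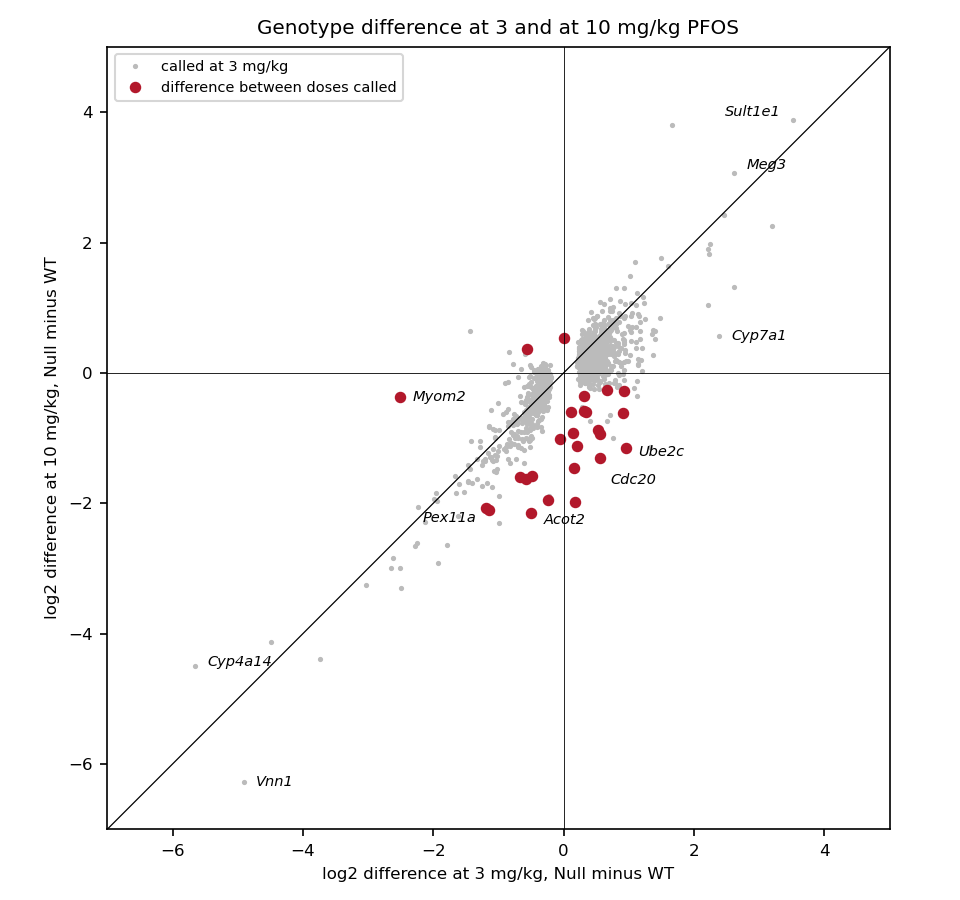
Difference between Null and WT at 3 mg/kg (x axis) and at 10 mg/kg (y axis) in log2 RMA units, with the line of equality. Grey points are genes called at 3 mg/kg and red points the 26 genes whose difference between the doses was called, among them Myom2 at -2.51 and -0.37 and Ube2c at 0.96 and -1.15.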

How the data were processed

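Gene expression was measured on 1 Affymetrix mouse genome array per mouse in the livers of 30 mice in 6 groups of 5, of which the 10 mice at 3 mg/kg were compared. The deposited table holds log2 expression values of 45101 probe sets, which the authors made by RMA (background adjustment, quantile normalization, and summarization of probes). Per the methods, all samples were labeled and hybridized as 1 block, and no batch could be tested. There were 0 columns of other samples. Probe sets were named through a platform annotation table (34958 with 1 gene, 932 with several, 9211 with none), and only those with 1 gene were named. A gene that is not named this way is not analysed here. Weak probe sets were removed as in the methods, which state no rule. The filter here kept those above the median of the 10 arrays in at least 5 of them.

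Null and WT were compared with limma 3.58.1 in R 4.3.3, with Benjamini-Hochberg adjustment over all kept probe sets, in fits of the 10 arrays at 3 mg/kg, of the 10 arrays at 10 mg/kg, and, for the difference between the doses, of all 20. The steps were tested on simulated data. Replicate numbers were not taken to pair mice, since same-numbered Null and WT arrays deviated together with correlations of only 0.22, 0.19, 0.06, -0.23, and -0.06. The members and the 54 gene lists were chosen with earlier results of these data known, and lists overlap. Named genes are the 14 largest differences in each direction among called genes whose groups do not overlap, in each list the 3 measured members of smallest p, Ppara, and the genes that the study measured by RT-PCR. Any other gene named was chosen after its values were seen. Alternatives were no filter, a stricter filter (mean log2 of at least 7), other choices of probe set, 2 other scalings, limma with trend and robust spread, array weights, fits of 20 or 30 arrays, a plain t-test of Null against WT (the methods ran theirs between doses within each strain), a block for the replicate number, the methods' unadjusted limit of 0.0025, a 1.5-fold limit, and each array left out. Motifs were searched in RefSeq promoters of GRCm38.p6. Plots used Python 3.11.15 and matplotlib 3.10.9.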

Additional observations from a re-analysis of the deposited data

Results flagged for a closer look

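Of the 348 groups of 5 arrays examined for the named genes, 17 held 1 array far from the other 4, and chance flags about 1 in 20 groups. In Null 3 mg/kg, replicate 4 was low for Serpinb1a (8.06, others 9.48 to 10.02), Hsd17b4 (11.68, others 11.86 to 11.92), Cyp1a2 (13.17, others 13.62 to 13.76), and Car1 (6.97, others 7.83 to 8.08), and high for Krt19 (6.34, others 5.69 to 5.79), and replicate 5 was high for Ube2c (6.76, others 6.23 to 6.26). In WT 3 mg/kg, replicate 1 was high for Tafa2 (4.59, others 3.47 to 3.71) and Cyp2b10 (12.17, others 11.68 to 11.76) and low for Nceh1 (7.34, others 7.95 to 8.11). WT replicate 2 was low for Hmgcs1 (9.06, others 9.93 to 10.10), Psmb3 (10.49, others 10.77 to 10.85), and Ndufc1 (11.93, others 12.29 to 12.34), and high for Slc22a5 (9.79, others 9.49 to 9.56) and Slco1a4 (11.39, others 10.80 to 10.91). WT replicate 4 was high for Clta (9.13, others 8.06 to 8.30) and Blnk (6.24, others 4.95 to 5.03), and WT replicate 5 was low for Car1 (6.82, others 7.45 to 7.64). Hmgcs1, Clta, Blnk, Serpinb1a, Tafa2, and Ube2c were called in every run that left out 1 array.

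The difference between Null and WT itself differed between 3 and 10 mg/kg for 5 named genes. As the difference at 3 mg/kg minus that at 10 mg/kg, it was -2.14 for Myom2 (adjusted p = 0.00783), 1.66 for Acot2 (0.000877), 0.95 for Pex11a (0.00271), 1.86 for Cdc20 (0.00154), and 2.11 for Ube2c (0.00241), from limma.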

How the results depend on the processing

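The 1691 calls (1074 higher and 617 lower in Null) became 2959 (1768 and 1191) with array weights, 899 (510 and 389) with a plain t-test of Null against WT at the methods' unadjusted limit, 1012 (585 higher) with that test and Benjamini-Hochberg adjustment, and 368 (235 and 133) at a difference of at least 1.5-fold. Lower calls numbered 394 with arrays shifted to the same median and 963 after repeated quantile normalization. With the replicate number as a block there were 1308 calls, 1200 of them shared, and 6 interferon genes. The numbers do not pair the mice. Leaving out 1 array gave 827 to 2079 calls, 491 to 1312 higher and 320 to 866 lower. PPARα targets stayed at 31 to 34 lower members in these runs, cholesterol genes at 9 to 11, complement genes at 17 to 22, and interferon genes at 5 to 15. Cholesterol genes numbered 7 with 30 arrays in the fit, 6 with the plain t-test at the unadjusted limit, and 6 at 1.5-fold. Interferon genes numbered 2 and 2 under the plain t-test without and with adjustment, and 8 at 1.5-fold, and complement genes 6 at 1.5-fold. At 10 mg/kg the 866 calls became 1663 with 30 arrays in the fit and 502 to 1672 with 1 array left out. The control arrays in that fit include WT replicates 4 and 5, where Ppara read 8.53 and 8.63, below every Null array at 0 mg/kg (9.27 to 9.66). The 26 genes whose difference varied with dose became 41 with no filter, 16 with the stricter filter, and 16 to 36 with 1 array left out. Under the adjusted plain t-test, Cyp7a1 (adjusted p = 0.0894), Nudt7 (0.0901), Acot2 (0.0736), and Alas1 (0.0804) were not called. Clta turned to -0.004 (adjusted p = 0.978) on its brightest probe set. Of 149 called genes among the 174 named, 123 were called in every run with 1 array left out and 70 under every alternative that gave them a value. Causes of these shifts were not tested. Signal near background limits the folds of Vnn1, Cox6b2, Chrna2, Qpct, Fgf21, Meg3, Cxcl14, Cyp2d12, and Tafa2, whose lower group lay under the filter's limit in every array.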

Other observations

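Further lists were read at 3 mg/kg, where 9.27% of all genes were higher and 5.32% were lower. In the growth hormone axis, 5 of 17 measured genes were higher and 2 were lower in Null, with the growth hormone receptor Ghr at 0.53 (adjusted p = 0.00174), Igfals, which binds IGF1 in blood, at 0.68, and Igfbp2, an IGF binding protein raised in fasting, at -0.86. The count of higher genes was 3 without Null replicate 2 or WT replicate 1, and that of lower genes was 1 without any mouse but Null replicates 3 and 4 and WT replicate 3. Of 11 genes that male livers express more than female livers, 6 were higher and 0 were lower. Susd4, a complement inhibitor, read 9.55, 9.70, 9.43, 9.29, and 9.61 in Null mice, against 8.53, 9.04, 8.72, 8.93, and 8.41 in WT mice (0.79, SE 0.12, adjusted p = 0.00177). That count was 2 without Null replicate 2, Null replicate 5, WT replicate 1, or WT replicate 5, and 3 without WT replicate 3. Of 6 measured genes that female livers express more, 0 were higher and 1, Cyp4a14, was lower, with a median of -0.01. Serpina7, the thyroxine carrier of plasma, read 4.84, 5.44, 6.04, 5.52, and 5.29 in Null mice, against 6.87, 8.65, 6.66, 6.76, and 8.10 in WT mice (-1.98, SE 0.36, adjusted p = 0.00502).

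Circadian genes had 3 of 18 higher (16.7%) and 0 lower, near the 14.6% of all genes called. Per2 read 7.05, 7.40, 6.72, 6.56, and 6.53 in Null mice, against 4.76, 6.43, 5.30, 5.65, and 5.27 in WT mice, and Per3 and Bhlhe40 differed by 1.04 and 0.66. Other probe sets of Per3 differed by 0.14 to 0.45 and were not called. The circadian count was 10 without WT replicate 2 and 1 without Null replicate 2, Null replicate 5, WT replicate 1, or WT replicate 3. Asns, asparagine synthetase and a target of the integrated stress response, read 8.96, 9.18, 8.65, 8.26, and 8.39 in Null mice, against 7.44, 7.27, 7.03, 7.72, and 7.19 in WT mice (1.36, SE 0.17, adjusted p = 0.000458). Of 30 genes of that response and the unfolded protein response, 5 were higher and 1, Fgf21, was lower, which is 20% called. In retinoid metabolism, 4 of 20 were higher and 4 were lower, with Rdh5, a retinol dehydrogenase, at 0.66 and Dhrs4, a retinal reductase, at -0.87. Pparg, a relative of PPARα known from adipocytes, read 8.04, 8.36, 7.76, 7.65, and 8.15 in Null mice, against 6.66, 6.87, 7.07, 7.06, and 6.42 in WT mice (1.18, SE 0.15, adjusted p = 0.000483), while the adipocyte marker Fabp4 differed by 0.25 and was not called.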
